A study of Mus musculus with 6 samples.

Results

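The genes described here are 43 genes of the cell cycle and of DNA replication: cyclins, cyclin-dependent kinases, the replicative helicase and its partners, and proteins of mitosis and cytokinesis. They were taken by symbol from a table of 31273 genes, and all 43 were found with values above 0 in all 6 libraries. Of these, 41 reached a mean of 1 TPM over the 6 libraries (Bub1 and Cenpe did not), and all 43 were tested. The libraries were made from polyadenylated RNA of mouse left ventricle. In 3 libraries the labelled genotype was RBM20 overexpression restricted to cardiomyocytes, and in the other 3 it was control. The study's design text describes a tamoxifen-inducible RBM20 knock-in in cardiomyocytes. The labels of these samples give no strain, age, Cre driver, tamoxifen treatment or sex, do not say which alleles the controls carried, and name no separate animals beyond the numbers in their titles. The p-values therefore measure the spread between these libraries, which may in part be technical. RBM20 is a splicing regulator of striated muscle. The titles carry the abbreviation cre for the overexpression samples and cki for the controls, and the groups follow the genotype labels.

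A dividing cell passes from G1 into S phase when D-type cyclins with Cdk4 or Cdk6, and then cyclin E with Cdk2, inactivate the retinoblastoma protein and release E2F transcription factors. E2F raises the genes of DNA replication, and later the MuvB complex with B-Myb and FoxM1 raises those of G2 and mitosis. Most cardiomyocytes of an adult mouse have left the cell cycle, while fibroblasts, endothelial cells and blood cells of the ventricle can still divide. In bulk tissue RNA, more dividing cells and more RNA of a gene per cell cannot be told apart.

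Promoters of these genes are known for 3 short motifs, and windows of replication and mitotic genes are shown here so that the letters of each can be compared. The E2F letters searched were TTTGGCGC, TTTCCCGC, TTTGGCGG and TTTCGCGC. The letters of the cell cycle genes homology region (CHR), to which MuvB binds, were TTTGAA and TTCGAA, and the third motif, bound by the factor NF-Y, was CCAAT. Both strands were searched, from 250 bases before to 50 bases after each annotated start, in RefSeq windows on GRCm38.p6. E2F letters on opposite strands can overlap, as they do in both helicase promoters below. The windows of Mcm6 (chr1:128359656-128359955, minus strand) and Mcm5 (chr8:75109259-75109558, plus strand) are those of 2 subunits of the replicative helicase. Capitals mark all letters matched by any of the 3 motifs.
Mcm6: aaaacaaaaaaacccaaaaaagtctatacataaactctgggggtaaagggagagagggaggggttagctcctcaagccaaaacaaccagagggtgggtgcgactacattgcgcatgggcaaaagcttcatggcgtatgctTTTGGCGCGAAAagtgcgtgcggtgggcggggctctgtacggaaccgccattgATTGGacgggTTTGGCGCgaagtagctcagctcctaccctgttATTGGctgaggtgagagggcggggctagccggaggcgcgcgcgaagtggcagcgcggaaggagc
Mcm5: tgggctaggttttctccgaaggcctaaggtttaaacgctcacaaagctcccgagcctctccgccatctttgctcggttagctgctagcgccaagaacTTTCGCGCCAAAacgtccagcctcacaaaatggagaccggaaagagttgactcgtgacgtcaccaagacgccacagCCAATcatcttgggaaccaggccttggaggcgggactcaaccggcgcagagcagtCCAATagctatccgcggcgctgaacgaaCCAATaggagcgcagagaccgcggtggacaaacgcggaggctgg

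The next windows belong to 3 genes of G2 and mitosis whose RNA was higher in the overexpression libraries, Ccnb2 (chr9:70421505-70421804, minus strand), Cdk1 (chr10:69352863-69353162, minus strand) and Top2a (chr11:99024140-99024439, minus strand), and to Cenpf (chr1:189688037-189688336, minus strand), whose RNA was lower. Capitals mark the same motifs.
Ccnb2: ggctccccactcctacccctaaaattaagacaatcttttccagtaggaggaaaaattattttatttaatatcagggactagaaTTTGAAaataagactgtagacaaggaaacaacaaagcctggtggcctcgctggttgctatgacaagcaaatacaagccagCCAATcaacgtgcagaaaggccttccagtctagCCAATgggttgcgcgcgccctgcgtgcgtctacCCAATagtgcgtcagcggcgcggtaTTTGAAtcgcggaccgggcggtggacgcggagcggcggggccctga
Cdk1: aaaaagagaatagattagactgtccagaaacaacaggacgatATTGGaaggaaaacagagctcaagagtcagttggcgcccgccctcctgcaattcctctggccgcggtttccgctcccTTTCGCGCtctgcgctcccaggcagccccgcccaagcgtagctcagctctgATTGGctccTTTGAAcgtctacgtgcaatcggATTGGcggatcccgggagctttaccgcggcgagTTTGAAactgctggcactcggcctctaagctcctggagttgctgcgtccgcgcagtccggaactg
Top2a: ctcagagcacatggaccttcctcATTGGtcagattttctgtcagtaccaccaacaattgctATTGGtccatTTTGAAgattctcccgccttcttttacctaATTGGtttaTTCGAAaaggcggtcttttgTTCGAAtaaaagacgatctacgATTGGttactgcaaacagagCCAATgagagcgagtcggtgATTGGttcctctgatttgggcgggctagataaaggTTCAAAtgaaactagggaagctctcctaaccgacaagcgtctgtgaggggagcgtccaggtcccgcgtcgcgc
Cenpf: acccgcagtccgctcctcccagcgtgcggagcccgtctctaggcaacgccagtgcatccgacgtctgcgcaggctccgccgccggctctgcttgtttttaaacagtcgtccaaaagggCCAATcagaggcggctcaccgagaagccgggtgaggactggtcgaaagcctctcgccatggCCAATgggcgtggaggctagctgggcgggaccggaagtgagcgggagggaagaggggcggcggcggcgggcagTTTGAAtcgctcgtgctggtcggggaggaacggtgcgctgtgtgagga

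Windows were matched for 34 of the 43 genes, and for 27025 genes in all. E2F letters were present in 5 of 16 genes of G1, S phase entry, replication and nucleotide supply, against 1 of 18 genes of G2, mitosis and cytokinesis. CHR letters ran the other way, with 2 of 16 against 14 of 18. CCAAT was found in 10 of 16 and in 15 of 18. Over all 27025 genes, 2.70% had E2F letters, 21.7% had CHR letters and 41.1% had CCAAT. These are matches of letters and not measured binding sites. The Cenpf window, with a CHR match 3 bases after the start and a pair of CCAAT matches upstream, held the same letters as windows of genes that rose. No window was matched for Aurkb, Ccna2, Ccnd1, Ccnd2, Ccne2, Foxm1, Kif20a, Mcm4 and Tpx2.

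**Figure D1:**
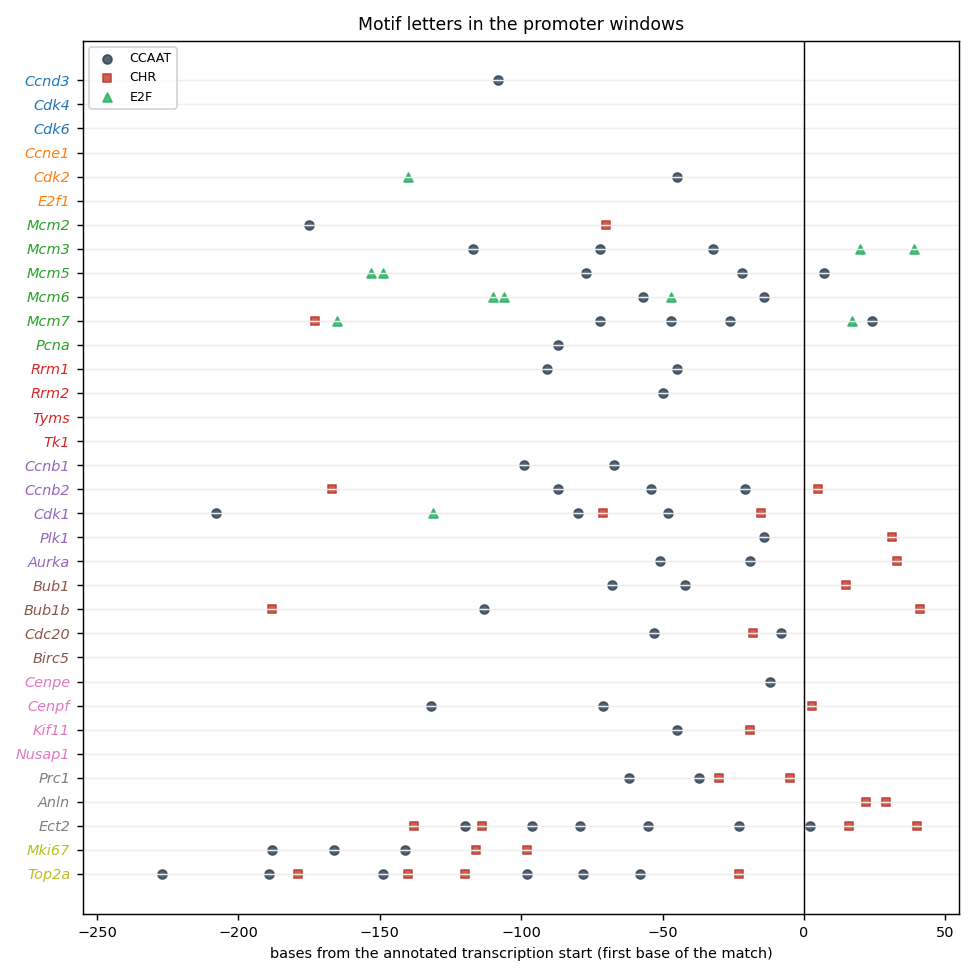
Positions of E2F, CHR and CCAAT letters (first base of each match) in the promoter windows of the genes that were matched, in bases from the annotated start; genes run down the page by role and are coloured by it. CHR letters lie mostly in the lower rows, which hold the genes of G2, mitosis and cytokinesis (14 of 18 with a match, against 2 of 16 in the upper rows).

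Expression was given by the authors as TPM, a share of all transcripts corrected for gene length. The sizes of the libraries, recovered from the steps between low TPM values, were 48990000 to 86520000 counted reads in the overexpression group and 40310000 to 68220000 in the control group. Transcripts encoded in mitochondria took 36.7% to 41.0% of the TPM in overexpression libraries and 48.3% to 52.0% in control libraries, and since TPM share a fixed total, the values of other genes move with that share. The median log2 difference over all genes averaging 1 TPM or more was 0.55 in deposited TPM and 0.01 after each library was scaled to the median of its ratios to a common reference, the geometric mean of the 6 libraries (the rescaled TPM). Each count is therefore given on both scales, and a difference is on the log2(TPM + 1) scale, which understates the change of low genes. Rbm20 itself, the check of the labels, stood at 321, 913 and 907 TPM in overexpression replicates 1, 2 and 3, against 74.9, 90.9 and 79.5 TPM in controls. Its difference was 2.96 (SE 0.40, limma adjusted p = 0.00159), and the exact two-sided permutation p was 0.1, the smallest that 3 against 3 allows. Sex did not divide the libraries as the groups did, but it was not balanced between them. The Y-linked Ddx3y was at 88.1 TPM in overexpression replicate 1 and at 0 in the other 5 libraries. Xist, an RNA of female cells, was at 0.0172, 62.6 and 57.2 TPM in overexpression replicates 1, 2 and 3, against 34.4, 40.2 and 37.6 TPM in controls. Esr1, the symbol of an estrogen receptor gene, was at 217.8, 52.98 and 198.8 TPM in overexpression libraries, against 0.415, 0.234 and 0.300 TPM in controls. Values per symbol cannot tell RNA of the native gene from RNA of a construct that holds part of it. Esr1 followed the groups, so whatever it reflects cannot be told apart from RBM20 overexpression. What part these differences have in the results was not tested.

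Of the 43 genes, 41 rose in the overexpression libraries, 1 fell (Cenpf) and 1 did not pass the test (Ccnd2). After rescaling, 37 rose, 1 fell and 5 did not pass (Ccnd2, Cdk6, Mcm2, Tk1 and Cdc20). Against this, 34.8% of the 21898 genes tested rose in deposited TPM and 12.7% after rescaling, while 5.32% and 13.2% fell. Genes at a mean of 1 to 10 TPM, where most of the 43 lie, rose in 44.2% of cases in deposited TPM and in 14.8% after rescaling. The median log2 difference of the 43 genes was 1.45 in deposited TPM and 1.14 after rescaling, against 0.20 and 0.02 for all genes tested. The overexpression libraries were all above the control libraries for 41 genes (39 after rescaling), beside 43% of all genes (20.9% after rescaling).

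**Figure D2:**
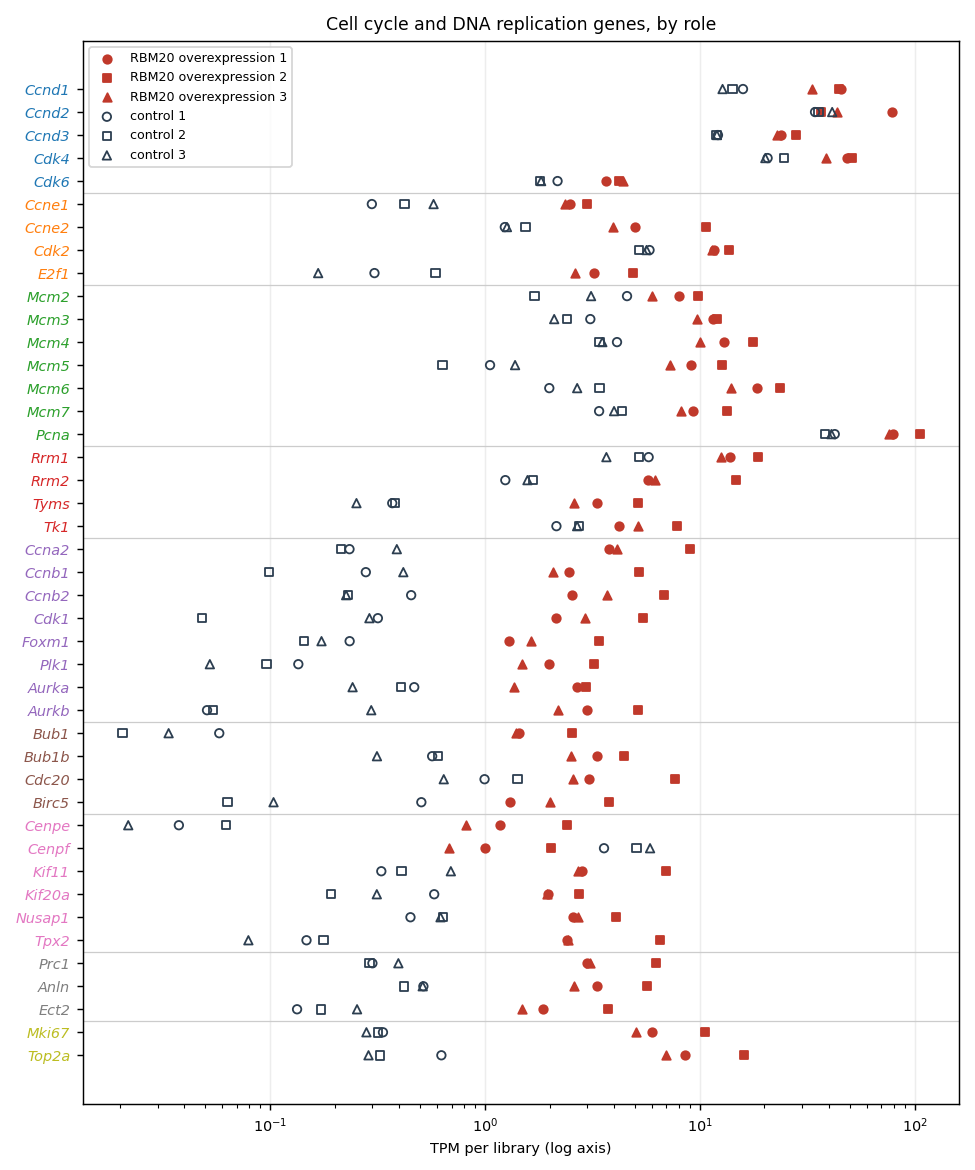
TPM of each of the 43 genes in every library (log axis), ordered by role from G1 (top) to mitotic chromosome proteins (bottom); filled symbols are the 3 overexpression libraries and open symbols the 3 control libraries. The groups are apart for all genes but Ccnd2, and Cenpf is the gene whose overexpression libraries lie to the left of its control libraries.

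Most genes of G2, mitosis and cytokinesis were barely detected in control ventricles. In the control group 24 of the 43 genes had a mean under 1 TPM, among them Ccne1, E2f1 and Tyms of earlier steps. All 43 genes averaged above 1 TPM in the overexpression group, so a low control mean fixes the direction of these 24. The counts over the 43 genes and by role include them, and their calls are no separate evidence of direction. Among the other 19, whose control average reached 1 TPM, 17 rose in deposited TPM and 13 after rescaling. The share of all genes at that control level that rose was not taken, so these counts have no matched comparison. Of those 19, 1 fell on both scales. By role, the median ratio of mean TPM, overexpression over control, was 2.11 for G1 cyclins and kinases, 5.46 for the G1/S switch, 3.67 for the helicase and clamp, and 4.50 for nucleotide supply. It was 15.2 for the cyclins, kinases and regulator of S, G2 and M, 8.71 for the spindle checkpoint group, 7.42 for kinetochore motors and spindle assembly, 12.5 for cytokinesis, and 24.4 for the pair of mitotic chromosome proteins. After rescaling the same medians were 1.37 for G1 cyclins and kinases, 3.49 for the G1/S switch, 2.35 for the helicase and clamp, and 2.87 for nucleotide supply. They were 9.57 for the cyclins, kinases and regulator of S, G2 and M, 5.53 for the spindle checkpoint group, 4.70 for kinetochore motors and spindle assembly, 7.94 for cytokinesis, and 15.5 for mitotic chromosome proteins. Over 12394 genes averaging 1 TPM or more that were above 0 in controls, the median ratio was 1.56 in deposited TPM and 1.01 after rescaling. Those genes were chosen by the mean over all 6 libraries and were not matched to the roles in control level. A gene under 1 TPM in controls enters that set only if its ratio is above 1. The ratios of the low genes rest on few control reads. The number of recovered reads of a gene was between 2 and 6407 in control libraries and between 76 and 9667 in overexpression libraries, and 10 genes had under 10 reads in at least 1 control library.

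**Figure D3:**
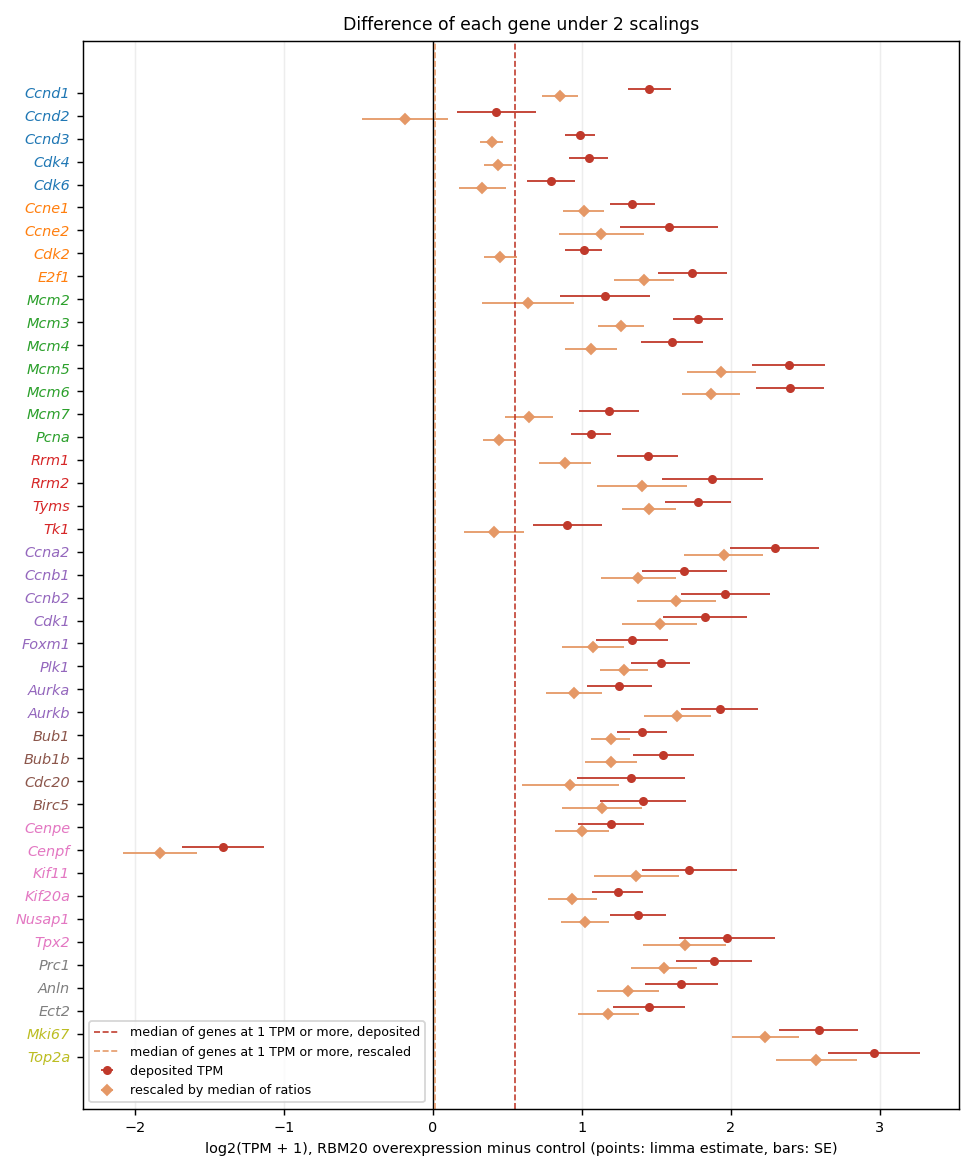
Difference of each gene, overexpression minus control, on the log2(TPM + 1) scale (points, limma estimate; bars, SE), in deposited TPM (circles) and after rescaling (diamonds); dashed lines mark the median of genes averaging 1 TPM or more on each scale (0.55 and 0.01). All genes except Cenpf lie right of 0 in deposited TPM, and Ccnd2 crosses to -0.19 after rescaling.

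The G1 cyclins and kinases start the cycle in response to growth signals, and Ccnd2 and Cdk4 were, after Pcna, the most abundant of the 43 genes in controls. Of these 5 genes, 4 rose in deposited TPM and 3 after rescaling. Ccnd2, a D-type cyclin that binds Cdk4 and Cdk6, was at 78.4, 36.5 and 43.8 TPM in overexpression libraries, against 34.4, 35.7 and 41.4 TPM in controls. The groups overlapped, since only overexpression replicate 1 was well above the controls, and the difference did not pass (0.43, SE 0.27, adjusted p = 0.263). It turned to -0.19 (SE 0.29, adjusted p = 0.688) after rescaling, and without overexpression replicate 1 it was 0.11 in deposited TPM. Cdk4, the kinase partner of the D-type cyclins, was at 48.6, 51.4 and 38.9 TPM in overexpression libraries, against 20.7, 24.6 and 20.2 TPM in controls, with no overlap. Its difference was 1.04 (SE 0.13, adjusted p = 0.00128), or 0.44 after rescaling (SE 0.09, adjusted p = 0.0149). Ccnd1, the D-type cyclin best known as a growth factor target, was at 45.4, 44.7 and 33.3 TPM in overexpression libraries, against 15.9, 14.2 and 12.8 TPM in controls. It rose by 1.45 (SE 0.15, adjusted p = 0.000619), and by 0.85 after rescaling (SE 0.12, adjusted p = 0.00346), and no other gene of this group had so large a difference. Ccnd3 averaged 24.99 ± 2.76 TPM in the overexpression group and 12.1 ± 0.0878 TPM in the control group (SD, n = 3 each), and rose on both scales. Cdk6 averaged 4.08 ± 0.385 TPM in the overexpression group and 1.94 ± 0.211 TPM in the control group. It rose in deposited TPM (adjusted p = 0.00792) but did not pass after rescaling (0.33, adjusted p = 0.194). After rescaling, the call of Cdk4 ended without overexpression replicate 2 (adjusted p = 0.0578) and without control replicate 3 (0.0621).

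The G1/S switch genes commit the cell to replication, and all 4 rose on both scales. Cdk2, the partner of cyclins E and A, was at 11.7, 13.7 and 11.5 TPM in overexpression libraries, against 5.84, 5.23 and 5.66 TPM in controls. The groups did not overlap, and the difference was 1.01 (SE 0.12, adjusted p = 0.00111), or 0.45 after rescaling (SE 0.11, adjusted p = 0.024). Ccne2, an E-type cyclin, was at 5.01, 10.7 and 3.96 TPM in overexpression libraries, against 1.24, 1.55 and 1.27 TPM in controls. Replicate 2 stood far above the other overexpression libraries, and the difference was 1.58 (SE 0.33, adjusted p = 0.00876), or 1.13 after rescaling (SE 0.28, adjusted p = 0.0294). E2f1, a transcription factor held back by the retinoblastoma protein, was at 3.21, 4.92 and 2.64 TPM in overexpression libraries, against 0.306, 0.589 and 0.168 TPM in controls. Its mean was 10.1 times that of controls in deposited TPM and 6.57 times after rescaling, with a difference of 1.74 (SE 0.23, adjusted p = 0.00151). Ccne1, the other E-type cyclin, averaged 2.62 ± 0.335 TPM in the overexpression group and 0.433 ± 0.140 TPM in the control group (SD, n = 3 each). After rescaling, the call of Cdk2 ended without overexpression replicate 2 or 3 and without control replicate 2 or 3 (adjusted p = 0.0834, 0.0612, 0.0793 and 0.0653). That of Ccne2 ended without overexpression replicate 1 and without each control replicate in turn (0.0502, 0.0672, 0.0675 and 0.0822).

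The Mcm2 to Mcm7 proteins form a ring of 6 subunits that unwinds DNA at the replication fork, and Pcna is the clamp that holds the polymerase on it. All 7 genes rose in deposited TPM and 6 after rescaling. Pcna, also used in DNA repair, was at 79.1, 105.5 and 75.8 TPM in overexpression libraries, against 42.5, 38.4 and 41.0 TPM in controls. It rose by 1.06 (SE 0.13, adjusted p = 0.00125), and by 0.45 after rescaling (SE 0.11, adjusted p = 0.0253). Mcm6, whose promoter holds 3 E2F matches, was at 18.4, 23.6 and 14.0 TPM in overexpression libraries, against 2.00, 3.42 and 2.69 TPM in controls. Every overexpression library was far above every control library, with a difference of 2.40 (SE 0.23, adjusted p = 0.000538), or 1.87 after rescaling (SE 0.20, adjusted p = 0.00105). Mcm4 was at 12.9, 17.6 and 10.01 TPM in overexpression libraries, against 4.12, 3.41 and 3.52 TPM in controls. Its difference was 1.60 (SE 0.21, adjusted p = 0.00143), or 1.06 after rescaling (SE 0.17, adjusted p = 0.00605). Mcm5, with an overlapping pair of E2F matches, averaged 9.71 ± 2.73 TPM in the overexpression group and 1.03 ± 0.374 TPM in the control group (SD, n = 3 each), a ratio of 9.46. Mcm3 averaged 11.1 ± 1.26 TPM in the overexpression group and 2.54 ± 0.510 TPM in the control group, and Mcm7 10.3 ± 2.78 TPM in the overexpression group and 3.92 ± 0.477 TPM in the control group. Both rose on both scales, with ratios of 4.38 for Mcm3 and 2.64 for Mcm7 in deposited TPM. E2F matches were present for these genes too, 2 in the Mcm3 window and 0 and 2 in the Mcm7 windows. The windows of Mcm2 and Pcna held 0. After rescaling, the call of Mcm7 ended without overexpression replicate 1 or 2 and without any 1 of the controls, with adjusted p between 0.0542 and 0.08. That of Pcna ended without overexpression replicate 2 and without control replicate 2 or 3 (adjusted p = 0.0534, 0.0782 and 0.0632).

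Mcm2 was the helicase subunit that did not pass on both scales. It was at 8.03, 9.86 and 6.001 TPM in overexpression libraries, against 4.59, 1.71 and 3.12 TPM in controls, so that control replicate 1 came near the lowest overexpression library. The difference was 1.15 (SE 0.30, adjusted p = 0.0219), or 0.64 after rescaling (SE 0.31, adjusted p = 0.196). The call in deposited TPM ended without overexpression replicate 1 (adjusted p = 0.0572), without overexpression replicate 2 (0.0761) and without control replicate 3 (0.0578). The balance among the 6 subunits also differed between libraries. The highest subunit stood 2.30, 2.39 and 2.33 times above the lowest in overexpression libraries, against 4.34, 6.83 and 2.89 times in controls. Mcm2 was the lowest subunit in every overexpression library, and Mcm5 in every control library. Their summed level was 69.5, 89.3 and 55.1 TPM in overexpression libraries, against 18.3, 15.9 and 16.8 TPM in controls.

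The genes of nucleotide supply make the deoxynucleotides that replication uses, and all 4 rose in deposited TPM and 3 after rescaling. Rrm1, the large subunit of ribonucleotide reductase, was at 13.8, 18.8 and 12.6 TPM in overexpression libraries, against 5.79, 5.23 and 3.68 TPM in controls. It rose by 1.44 (SE 0.21, adjusted p = 0.00201), and by 0.89 after rescaling (SE 0.18, adjusted p = 0.0122). Rrm2, the small subunit that is made in S phase, was at 5.76, 14.8 and 6.18 TPM in overexpression libraries, against 1.25, 1.67 and 1.58 TPM in controls. Replicate 2 was again the highest, and the difference was 1.88 (SE 0.34, adjusted p = 0.0051), or 1.402 after rescaling (SE 0.30, adjusted p = 0.0166). Tk1, which salvages thymidine, was at 4.21, 7.85 and 5.17 TPM in overexpression libraries, against 2.15, 2.75 and 2.69 TPM in controls. Its difference of 0.90 (SE 0.23, adjusted p = 0.0201) fell to 0.41 after rescaling and did not pass there (SE 0.20, adjusted p = 0.206). In deposited TPM the call of Tk1 ended without control replicate 1 (adjusted p = 0.0583) or control replicate 3 (0.0542). Tyms, which makes thymidylate, averaged 3.70 ± 1.32 TPM in the overexpression group and 0.335 ± 0.0715 TPM in the control group (SD, n = 3 each), the highest ratio of the group at 11.04.

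The cyclins, kinases and transcription factor of S, G2 and M phase were near the floor in control ventricles, and all 8 rose on both scales. Ccna2, the cyclin of S phase and G2, was at 3.79, 9.002 and 4.12 TPM in overexpression libraries, against 0.234, 0.214 and 0.389 TPM in controls. It rose by 2.29 (SE 0.30, adjusted p = 0.00148), and by 1.95 after rescaling (SE 0.27, adjusted p = 0.00285). Ccnb2, a mitotic cyclin, was at 2.55, 6.81 and 3.70 TPM in overexpression libraries, against 0.454, 0.230 and 0.226 TPM in controls. Its difference was 1.96 (SE 0.30, adjusted p = 0.0025), or 1.63 after rescaling (SE 0.27, adjusted p = 0.00581). Cdk1, the kinase that drives entry into mitosis, was at 2.15, 5.45 and 2.91 TPM in overexpression libraries, against 0.318, 0.0484 and 0.290 TPM in controls. All overexpression libraries were above all controls, replicate 2 the furthest, with a difference of 1.83 (SE 0.28, adjusted p = 0.00262), or 1.52 after rescaling (SE 0.25, adjusted p = 0.00614). Aurkb, the kinase of the chromosomal passenger complex, averaged 3.45 ± 1.54 TPM in the overexpression group and 0.134 ± 0.141 TPM in the control group (SD, n = 3 each). Ccnb1, the other mitotic cyclin, averaged 3.26 ± 1.72 TPM in the overexpression group and 0.265 ± 0.160 TPM in the control group. Aurka, a kinase of the spindle poles, averaged 2.34 ± 0.844 TPM in the overexpression group and 0.373 ± 0.117 TPM in the control group. Foxm1, which drives transcription of mitotic genes, averaged 2.11 ± 1.12 TPM in the overexpression group and 0.184 ± 0.0463 TPM in the control group. Plk1, a kinase of many mitotic steps, had 85, 125 and 108 reads in overexpression libraries, against 6, 6 and 2 reads in controls. With 2 reads taken as 1 fragment, since both ends of a pair may have been counted, its ratio over the pooled libraries was 21.4, with an exact 95% counting interval from 10.1 to 54.0. After rescaling, the call of Aurka ended without control replicate 3 (adjusted p = 0.0516).

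The spindle checkpoint delays anaphase until every chromosome is attached, Cdc20 is the activator of the complex that ends the delay, and Birc5 belongs to the passenger complex. All 4 genes of this group rose in deposited TPM and 3 after rescaling. Cdc20 was at 3.06, 7.71 and 2.56 TPM in overexpression libraries, against 0.997, 1.42 and 0.644 TPM in controls. Replicate 2 was far above the other overexpression libraries, and the difference of 1.33 (SE 0.36, adjusted p = 0.0258) did not pass after rescaling (0.92, SE 0.32, adjusted p = 0.087). Without control replicate 1 or control replicate 3 the adjusted p in deposited TPM was 0.0601 or 0.0844. Bub1b, a checkpoint protein of the kinetochore, was at 3.32, 4.43 and 2.51 TPM in overexpression libraries, against 0.569, 0.606 and 0.315 TPM in controls. It rose by 1.55 (SE 0.21, adjusted p = 0.00155), and by 1.20 after rescaling (SE 0.18, adjusted p = 0.00386). Birc5, also called survivin, was at 1.31, 3.77 and 2.01 TPM in overexpression libraries, against 0.506, 0.0635 and 0.104 TPM in controls. It rose by 1.41 (SE 0.29, adjusted p = 0.00823), and by 1.14 after rescaling (SE 0.27, adjusted p = 0.0231), a call that ended there without overexpression replicate 2 or 3 and without control replicate 2 or 3 (0.0523, 0.0589, 0.0766 and 0.0783). Bub1, the checkpoint kinase, had 96, 154 and 157 reads in overexpression libraries, against 4, 2 and 2 reads in controls. The pooled ratio of Bub1 on the deposited scale was 48.0, but its counting interval ran from 18.4 to 178. The ratio of mean TPM of Bub1, another measure than the pooled ratio, was 47.9 in deposited TPM and 30.4 after rescaling.

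Of the 6 genes of kinetochore motors and spindle assembly, 5 rose and 1 fell on both scales. Cenpf, a large protein of the kinetochore and the nuclear envelope that mouse studies also place in developing cardiomyocytes, was at 0.997, 2.04 and 0.684 TPM in overexpression libraries, against 3.59, 5.08 and 5.88 TPM in controls. The groups did not overlap, and the difference was -1.41 (SE 0.28, adjusted p = 0.00717), or -1.83 after rescaling (SE 0.25, adjusted p = 0.00286). The reads behind it were 216, 400 and 250 in overexpression libraries and 804, 1604 and 1133 in controls. Among overexpression libraries Cenpf was highest in replicate 2, as were most genes that rose. In the control group, Cenpf at 4.85 ± 1.16 TPM (SD, n = 3) stood above the other 5 genes of its group, which averaged from 0.0407 to 0.571 TPM. Kif11, the motor that separates the spindle poles, was at 2.85, 6.97 and 2.72 TPM in overexpression libraries, against 0.330, 0.410 and 0.695 TPM in controls. It rose by 1.72 (SE 0.32, adjusted p = 0.00565), and by 1.36 after rescaling (SE 0.29, adjusted p = 0.0149), with an adjusted p of 0.05004 there without control replicate 2. Tpx2, which activates Aurka on the spindle, was at 2.41, 6.56 and 2.43 TPM in overexpression libraries, against 0.148, 0.178 and 0.0793 TPM in controls. Replicate 2 was far above the other overexpression libraries, which were still far above all controls, and the difference was 1.97 (SE 0.32, adjusted p = 0.00327), or 1.69 after rescaling (SE 0.28, adjusted p = 0.00594). Nusap1, a microtubule bundling protein of the spindle, averaged 3.13 ± 0.843 TPM in the overexpression group and 0.571 ± 0.105 TPM in the control group (SD, n = 3 each). Kif20a, a kinesin of the central spindle, averaged 2.21 ± 0.448 TPM in the overexpression group and 0.362 ± 0.199 TPM in the control group. Cenpe, a kinetochore motor, had 182, 337 and 213 reads in overexpression libraries, against 6, 14 and 3 reads in controls. Its pooled ratio on the deposited scale was 28.7, with a counting interval from 16.2 to 56.0. The ratio of mean TPM of Cenpe, another measure than the pooled ratio, was 36.2 in deposited TPM and 23.2 after rescaling.

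Cytokinesis was represented by 3 genes, all of which rose on both scales. Prc1, which bundles microtubules at the cell's midzone, was at 3.001, 6.25 and 3.08 TPM in overexpression libraries, against 0.300, 0.290 and 0.396 TPM in controls. It rose by 1.89 (SE 0.26, adjusted p = 0.00167), and by 1.55 after rescaling (SE 0.22, adjusted p = 0.00337). Anln, the anillin of the contractile ring, was at 3.33, 5.69 and 2.61 TPM in overexpression libraries, against 0.518, 0.421 and 0.514 TPM in controls. Its difference was 1.67 (SE 0.25, adjusted p = 0.00229), or 1.31 after rescaling (SE 0.21, adjusted p = 0.0052). Ect2, the exchange factor that switches on RhoA at the furrow, was at 1.87, 3.73 and 1.497 TPM in overexpression libraries, against 0.134, 0.173 and 0.254 TPM in controls. It rose by 1.45 (SE 0.24, adjusted p = 0.00376), and by 1.18 after rescaling (SE 0.20, adjusted p = 0.00716). In all 3 genes the groups were apart and replicate 2 was the highest overexpression library.

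The pair of mitotic chromosome proteins had the largest differences of the 43 genes on the log2(TPM + 1) scale, on both scalings. Top2a, the topoisomerase that untangles sister chromatids, was at 8.56, 16.2 and 6.97 TPM in overexpression libraries, against 0.628, 0.324 and 0.287 TPM in controls. It rose by 2.96 (SE 0.31, adjusted p = 0.00068), and by 2.57 after rescaling (SE 0.27, adjusted p = 0.00114). Mki67, which codes for the Ki-67 antigen used to stain cycling cells, was at 6.01, 10.6 and 5.04 TPM in overexpression libraries, against 0.336, 0.319 and 0.281 TPM in controls. It rose by 2.59 (SE 0.26, adjusted p = 0.000649), and by 2.23 after rescaling (SE 0.22, adjusted p = 0.000915).

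The rest of the cell cycle machinery was followed with 140 further genes in 8 lists. Of these, 109 rose, 3 fell and 28 did not pass in deposited TPM. After rescaling, 64 rose, 8 fell and 68 did not pass. Of all 21898 genes tested, 34.8% rose and 5.32% fell in deposited TPM, and 12.7% rose and 13.2% fell after rescaling. The counts of each list are to be read beside these shares, and no test compared them. The median difference of the 140 genes was 0.83 in deposited TPM and 0.48 after rescaling. It was smaller than that of the 43 genes on either scale, though no test compared these sets. Condensin, spindle motors and midbody genes rose most widely, 18 of 18 in deposited TPM and 16 after rescaling. Smc4, a condensin subunit, averaged 24.5 ± 6.01 TPM in the overexpression group and 10.5 ± 0.966 TPM in the control group (SD, n = 3 each), and rose on both scales. Ncapd2, another subunit, averaged 8.08 ± 0.767 TPM in the overexpression group and 4.58 ± 0.827 TPM in the control group, and did not pass after rescaling (adjusted p = 0.461). Kinetochore, checkpoint and cohesin genes rose in 14 of 18 cases (9 after rescaling). Bub3, a checkpoint protein, averaged 26.0 ± 2.41 TPM in the overexpression group and 11.9 ± 1.26 TPM in the control group. Pttg1, the securin that guards cohesin, averaged 65.8 ± 5.16 TPM in the overexpression group and 69.8 ± 3.78 TPM in the control group, and fell only after rescaling (-0.70, adjusted p = 0.00211). Cenpa, the histone variant of centromeres, fell on both scales, at 6.54, 6.24 and 5.11 TPM in overexpression libraries, against 8.87, 11.7 and 11.2 TPM in controls (difference -0.73, SE 0.15, adjusted p = 0.00933).

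Of the 17 genes of origin licensing and firing, 13 rose in deposited TPM and 4 after rescaling. Gmnn (geminin), which blocks a second licensing of an origin, fell on both scales. It was at 11.8, 21.7 and 20.3 TPM in overexpression libraries, against 50.4, 51.9 and 46.4 TPM in controls, a difference of -1.46 (SE 0.22, adjusted p = 0.00233). Orc3, of the origin recognition complex, averaged 24.6 ± 2.04 TPM in the overexpression group and 18.7 ± 1.03 TPM in the control group (SD, n = 3 each), and its difference of 0.38 turned to -0.22 after rescaling (adjusted p = 0.146). Of the 25 genes of the replication fork, 17 rose in deposited TPM and 9 after rescaling. The single-strand binding gene Rpa1 averaged 32.9 ± 5.18 TPM in the overexpression group and 18.9 ± 2.16 TPM in the control group, and did not pass after rescaling (0.16, adjusted p = 0.417). Its partner Rpa3, at 23.7 ± 5.67 TPM in the overexpression group and 19.3 ± 3.38 TPM in the control group, passed on neither scale. Dut, which clears dUTP, fell only after rescaling (-0.78, adjusted p = 0.00405). Of the 16 genes of DNA damage checkpoint and repair, 13 rose in deposited TPM and 9 after rescaling. The fork protection pair Tipin and Timeless rose in deposited TPM, by 0.98 and 1.07, and passed no longer after rescaling (adjusted p = 0.211 and 0.065).

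Of the 18 E2F, pocket protein and MuvB genes, 13 rose in deposited TPM and 7 after rescaling. E2f6, a repressor of the E2F family, averaged 58.4 ± 4.22 TPM in the overexpression group and 43.1 ± 6.63 TPM in the control group (SD, n = 3 each), with a difference of 0.44 that became -0.18 after rescaling (adjusted p = 0.300). Rbbp4, a histone binding subunit of MuvB, averaged 59.1 ± 4.75 TPM in the overexpression group and 35.6 ± 1.70 TPM in the control group, and passed in deposited TPM alone. Tfdp2, a DNA-binding partner of E2F proteins, fell on both scales, at 15.4, 15.8 and 11.4 TPM in overexpression libraries, against 35.1, 35.5 and 32.3 TPM in controls (difference -1.23, SE 0.14, adjusted p = 0.000822). Genes of CDK activation and cyclin destruction rose in 17 of 20 cases (7 after rescaling). Cdc16, of the anaphase-promoting complex, averaged 45.4 ± 4.79 TPM in the overexpression group and 23.3 ± 0.869 TPM in the control group, and Ube2s, its ubiquitin-conjugating enzyme, 35.7 ± 0.341 TPM in the overexpression group and 18.8 ± 0.406 TPM in the control group. Both rose on both scales, while Ccnh and Anapc4 fell only after rescaling (-0.59 and -0.72). Of the 8 CDK inhibitors, 4 rose in deposited TPM and 3 after rescaling. Cdkn1a (p21) was at 147.6, 367.5 and 288.0 TPM in overexpression libraries, against 174.8, 78.2 and 62.8 TPM in controls, and the groups overlapped (difference 1.38, SE 0.46, adjusted p = 0.0519). Cdkn1b (p27) averaged 28.6 ± 3.79 TPM in the overexpression group and 23.6 ± 3.38 TPM in the control group and passed on neither scale, and Cdkn1c (p57) fell only after rescaling (-0.74, adjusted p = 0.0269).

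**Figure D4:**
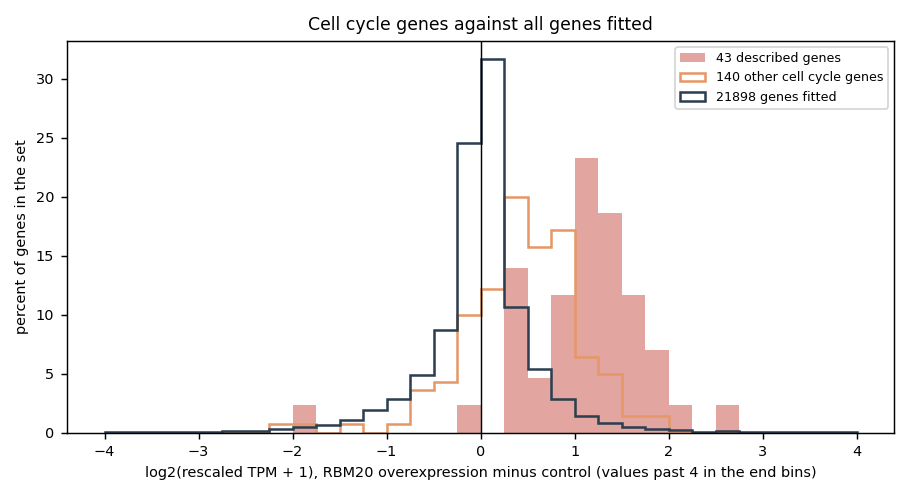
Share of genes (percent of each set) by difference on the log2(rescaled TPM + 1) scale, overexpression minus control, for the 43 described genes (filled), 140 other cell cycle genes (orange line) and all 21898 genes tested (dark line). The described genes centre on 1.14 and the other cell cycle genes on 0.48, beside 0.02 for all genes.

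The overexpression libraries were not alike in these genes. After rescaling, replicate 2 was the highest of the 3 for 38 of the 43 genes, beside 28.7% of all genes averaging 1 TPM or more. The exceptions after rescaling were Ccnd1, Ccnd2, Cdk4, Cdk6 and Mcm3. After rescaling, the level in replicate 2 over the mean of replicates 1 and 3 had a median of 1.57 across the 43 genes and of 0.988 across the genes averaging 1 TPM or more. By role it was 1.03 for G1 cyclins and kinases, 1.32 for the helicase and clamp, 1.94 for the cyclins and kinases of S, G2 and M, and 2.19 for kinetochore motors and spindle assembly. A ratio of at least 1.5 was found for 24 of the 43 genes, beside 3.18% of those genes. This order was noticed after the values were seen, and it rests on 1 library. Without replicate 2, 40 of the 43 genes rose in deposited TPM and 32 after rescaling. Without replicate 1, the library with Y-linked RNA, 40 and 35 rose. Over all genes, 6290 rose in deposited TPM and 1905 after rescaling without replicate 2, and 7211 and 2527 without replicate 1. In rescaled TPM the 43 genes summed to 371, 421 and 323 in overexpression replicates 1, 2 and 3, against 219, 203 and 221 in controls. Rescaled Rbm20 was 258, 679 and 773 in the same overexpression libraries, against 93.8, 107 and 101 in controls.

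Markers of the cell types of the ventricle were read beside these genes on both scales, against 34.8% of all genes higher in deposited TPM and 12.7% after rescaling. Macrophage markers, 12 of 12 called higher in deposited TPM and 8 after rescaling, summed to 1440, 1138 and 815 TPM in overexpression libraries, against 494, 426 and 380 TPM in controls. Their rescaled sums were 1157, 846 and 694 in overexpression libraries, against 618, 502 and 482 in controls. Fibroblast markers, 6 of 10 called higher in deposited TPM and 4 after rescaling with 2 called lower, summed to 1717, 2151 and 1449 TPM in overexpression libraries, against 666, 564 and 514 TPM in controls. Their rescaled sums were 1379, 1600 and 1234 in overexpression libraries, against 834, 666 and 653 in controls. For both sums the groups were apart on both scales. The highest library was replicate 2 for the fibroblast sum, as for the cell cycle genes, and replicate 1 for the macrophage sum. After rescaling, the level in replicate 2 over the mean of replicates 1 and 3 had a median of 1.28 across the fibroblast markers. The ratio reached 1.5 for 0 of these 10, against a median of 1.57 and 24 of 43 for the cell cycle genes. The fibroblast markers did not move together. After rescaling, overexpression libraries were above all controls for Postn, Col1a1, Col1a2 and Col3a1, and below for Dcn and Dpt. The groups overlapped for Pdgfra, Lum, Tcf21 and Thy1. Rescaled Postn was at 362, 476 and 293 in overexpression libraries, against 18.2, 9.73 and 11.8 in controls. Rescaled Dcn was at 233, 241 and 254, against 390, 346 and 296.

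Lymphocyte and neutrophil markers summed to 33.9, 17.7 and 12.96 TPM in overexpression libraries, against 7.94, 7.42 and 6.56 TPM in controls. Their rescaled sums were 27.2, 13.1 and 11.04 in overexpression libraries, against 9.95, 8.76 and 8.33 in controls. Of these 12 markers 5 were called higher in deposited TPM and 1 after rescaling, shares near or below those of all genes, and Cd3e, Cd3d, Cd8a and Ms4a1 were at 0 in at least 1 library. Erythroid and marrow markers summed to 808, 1808 and 742 TPM in overexpression libraries, against 1175, 777 and 1119 TPM in controls. The rescaled sums were 649, 1345 and 632 in overexpression libraries, against 1471, 917 and 1420 in controls. Replicate 2 was the highest overexpression library on both scales, and none of 7 tested was called on either scale. After rescaling, the level in replicate 2 over the mean of replicates 1 and 3 had a median of 2.08 across 6 markers. The ratio was at least 1.5 for all 6 of them. The marrow gene Elane was at 0 in every library and was not tested. Rescaled Mpo, the other marrow gene, was at 0, 0.0307 and 0 in overexpression libraries, against 0.0452, 0.0151 and 0 in controls. Endothelial markers summed to 664, 648 and 644 TPM in overexpression libraries, against 623, 590 and 469 TPM in controls, with 0 of 10 called in deposited TPM. After rescaling the direction of the sums turned, to 533, 482 and 549 in overexpression libraries, against 780, 697 and 595 in controls, with 3 of 10 called lower.

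Pericyte and smooth muscle markers summed to 658, 682 and 627 TPM in overexpression libraries, against 728, 702 and 594 TPM in controls, with 4 of 9 called higher and 1 lower. After rescaling the groups were apart, with 528, 508 and 534 in overexpression libraries against 911, 829 and 754 in controls, and 1 was called higher and 4 lower. Cardiomyocyte markers, which define the labelled tissue, summed to 55898, 50582 and 56419 TPM in overexpression libraries, against 62809, 60700 and 55321 TPM in controls, with 4 of 10 called lower and 2 higher. After rescaling these groups were apart too, with 44898, 37624 and 48070 in overexpression libraries against 78653, 71649 and 70186 in controls, and 7 were called lower and 1 higher. The part of these cell types in the levels of the cell cycle genes was not tested.

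**Figure D5:**
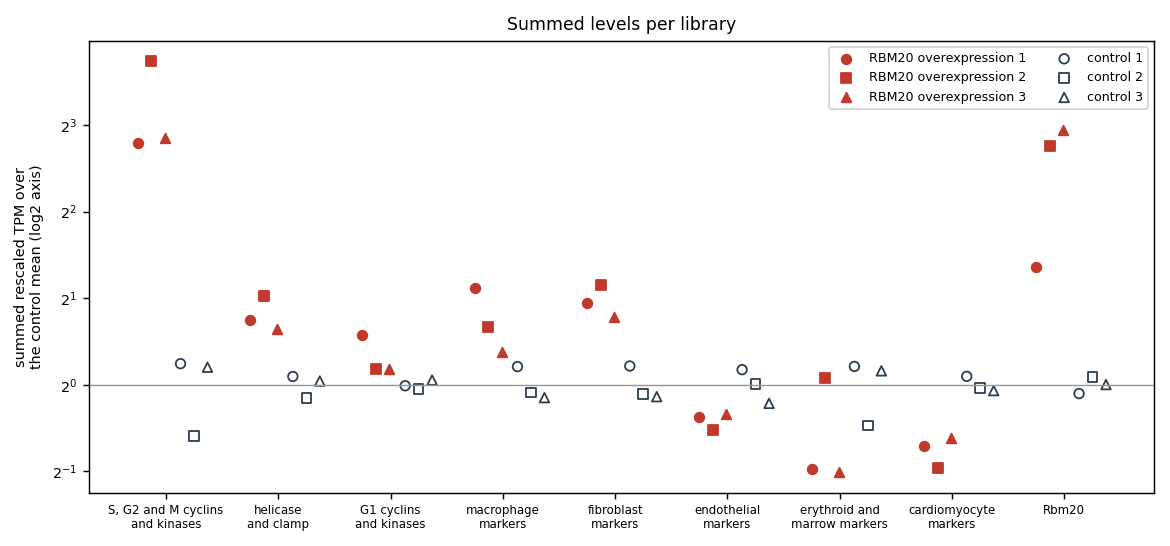
Summed rescaled TPM of 3 groups of cell cycle genes, 5 marker lists and Rbm20 in each library, as a ratio to the mean of the control libraries (log2 axis); filled symbols are overexpression libraries, left of the open control symbols. Replicate 2 (squares) is the highest overexpression library for the cyclins and kinases of S, G2 and M, the helicase and clamp, and the fibroblast and erythroid markers, while replicate 1 (circles) is highest for macrophage markers.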

How the data were processed

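The 6 libraries, 3 per genotype label, hold polyadenylated RNA of left ventricle. The authors deposited a table of TPM per symbol, a unit given per the file headers, with no column of other samples. The submitters' processing notes list STAR-Fusion 1.11.0, featureCounts 2.0.3, GATK 4.2.6.1 and edgeR 3.40.2, and name the build mm8. The aligner is not given in the sources used here, and neither are the annotation and the use of strand, so reads of overlapping or antisense genes cannot be assigned with certainty. Depth and reads per gene were recovered from TPM steps: with gene lengths within 50% of GENCODE M21 and a tolerance of 0.02 reads, 12269 of 12285 genes came out whole. Read numbers may be off by a whole factor, since lengths are not fixed.

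The 21898 genes above 0 in any library were compared as log2(TPM + 1) in limma 3.58.1 (R 4.3.3) with a trended, moderated, two-sided test. P-values were adjusted by Benjamini-Hochberg over all these genes, with a threshold of 0.05. No filter on the mean was used, because low genes would pass it through the group in which they are high. The rescaling is that of median of ratios. Intervals of pooled read ratios are exact, at 95%, and cover counting error only. Alternatives were other scalings, pseudocounts, filters, limma settings and each library left out. Voom from limma on recovered reads, and rescaling combined with other settings, were chosen after seeing the data. The test was tried on simulated data. The genes, lists, motifs and roles were chosen with earlier results of these data known. The 3 genes of each role with the highest mean TPM have all values given. The 2 highest of each further list are named, as is any gene called against the majority of its list on either scale. Plk1, Bub1, Cenpe, Mcm2, Cenpf, Esr1, Ddx3y, Xist, Postn and Dcn were picked out once their values had been seen. Figures used Python 3.11.15 with numpy 2.4.6, pandas 2.3.3, scipy 1.17.1 and matplotlib 3.10.9.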

Additional observations from a re-analysis of the deposited data

How the results depend on the processing

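The number of the 43 genes that rose was between 30 and 41, and 1 fell, under every alternative. Leaving out 1 library gave 38 to 41 in deposited TPM and 30 to 35 after rescaling. Rbm20 passed under each, with differences from 2.05 to 3.46. The counts over all genes and over the 140 further genes moved with scaling. Rescaling called 2788 genes higher and 2899 lower, 64 and 8 of the 140, and quantile normalization 2929 and 2809, with 62 and 8. Rescaling with a mean of at least 1 TPM gave 2755 and 2972, with 47 and 12, and with a pseudocount of 0.1 gave 2887 and 2906, with 66 and 8. Voom on recovered reads gave 2812 and 2876, with 68 and 10, after median-of-ratios scaling. Without mitochondrially encoded genes, 5309 genes were called higher and 1738 lower, with 88 and 6 of the 140. The difference of Rbm20 was 2.69 under that setting, against 2.34 after rescaling. Rescaling without 1 library gave 1715 to 2527 genes higher and 2114 to 2698 lower, with 47 to 62 and 7 to 11 of the 140. Without 1 library in deposited TPM, 5723 to 7582 rose and 973 to 1105 fell, with 89 to 110 and 3 of the 140. Ccnd2 turned to -0.19 under rescaling alone, with the mean filter, with a pseudocount of 0.1 and in voom, to -0.0856 under quantile normalization, and to -0.50 to -0.10 under rescaling without 1 library, except without overexpression replicate 2. In deposited TPM it was 0.11 to 0.65 without 1 library. Mcm2 and Tk1 passed no longer without mitochondrially encoded genes (adjusted p = 0.0535 and 0.0542). The cause was not tested for these changes. Low control reads limit the ratios of mitotic genes, and 3 libraries per group limit the tests. No paired analysis was possible because the title numbers differ between the groups.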
